A study of Mus musculus with 2 samples.

Results

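The miR-148/152 family comprises the miRNA genes Mir148a, Mir148b and Mir152, whose 3′ arms begin with the same seed, the bases 2 to 8 by which a miRNA chiefly recognises its targets. The genes were chosen by name, by matching the Ensembl identifiers of the count tables to these symbols in GENCODE, and all 3 were found among the 1973 miRNA genes counted. The libraries were made from short RNA of limbs of B6NCrl mouse embryos aged 13.5 days, a stage at which cartilage condenses, muscle forms and vessels, nerves and skin are present. There was 1 group with 2 biological replicates, each from pooled male and female embryos of 1 donor label, and no genotype, treatment or second tissue to compare with. The libraries held 5927321 and 6003632 reads on the sense strand of miRNA genes in replicates 1 and 2, and levels are given as CPM, the sense counts scaled to this total. A read covers a short RNA rather than a part of a long one, so no scaling by length was applied. No source states that the 2 replicates came from separate litters.

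A miRNA is cut from a hairpin in a longer transcript, loaded into an Argonaute protein and guided by its seed to messenger RNAs, which it represses. The miR-148/152 family is best known for repressing Dnmt1, the maintenance DNA methyltransferase, and in cultured mouse myoblasts miR-148a is known to promote differentiation through Rock1. Mir148b and Mir152 lie within the genes of the zeta subunits of coatomer, the coat of vesicles that return cargo from the Golgi to the endoplasmic reticulum. Only miRNA genes were counted, so Dnmt1 and other targets were not analysed here.

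The sequences below are the 3′ arms that carry the family seed, from RefSeq on GRCm38.p6, with the seed in capitals, shown because the family is defined by it.
miR-148a-3p: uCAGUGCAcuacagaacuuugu
miR-148b-3p: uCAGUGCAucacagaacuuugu
miR-152-3p: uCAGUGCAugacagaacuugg
Counted from the 5′ end of the arm, miR-148a-3p and miR-148b-3p differed by 2 bases of 22, C9U and U10C. From miR-148a-3p to miR-152-3p there were 3 differences in 21 compared bases, C9U, U10G and U20G. From miR-148b-3p to miR-152-3p there were 2 differences, C10G and U20G. All of these lie outside the seed. The first falls right after it, at base 9, in the pairs with miR-148a-3p, and at base 10 between miR-148b-3p and miR-152-3p.

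The 5′ arms, which lie on the other side of the hairpin, differed more, and are shown because the counts do not tell the arms apart.
miR-148a-5p: aAAGUUCUgagacacuccgacu
miR-148b-5p: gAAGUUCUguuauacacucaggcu
miR-152-5p: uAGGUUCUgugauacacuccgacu
Mir148a and Mir148b share the seed of this arm too, while Mir152 has another, through the difference A3G. Over the compared bases, 9 of 22 differed between miR-148a-5p and miR-148b-5p, 10 of 22 between miR-148a-5p and miR-152-5p, and 5 of 24 between miR-148b-5p and miR-152-5p.

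The hairpins show where each 3′ arm (capitals) sits and how far the genes have diverged around it.
Mir148a: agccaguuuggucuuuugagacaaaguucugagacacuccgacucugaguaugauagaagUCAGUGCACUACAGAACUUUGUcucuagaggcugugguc
Mir148b: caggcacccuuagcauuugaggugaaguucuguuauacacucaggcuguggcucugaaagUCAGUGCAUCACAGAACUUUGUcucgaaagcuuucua
Mir152: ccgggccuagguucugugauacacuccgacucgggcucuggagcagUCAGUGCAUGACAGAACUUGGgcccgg
The hairpins of Mir148a and Mir148b are 99 and 97 bases long, with GC contents of 45.5% and 45.4%. That of Mir152 is shorter, 73 bases, and richer in GC, at 61.6%. Predicted folding energies were -41.0, -30.9 and -43.5 kcal/mol for Mir148a, Mir148b and Mir152. The longest stretch that any of the 3 shares with another annotated miRNA hairpin was 15 bases, between Mir148a and Mir148b. None of the 6 mature arms occurs in a second annotated hairpin. This bears on the counts, because multimapping reads were assigned to no gene, and these were 30.8% of replicate 1 and 29.5% of replicate 2. Copies outside the annotated hairpins were not searched.

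By read counts, Mir148a was the highest member and held most counts of the family. Mir148a had 951 CPM in replicate 1 and 879 CPM in replicate 2, from 5635 and 5279 reads. Mir148b had 163 and 166 CPM, from 964 and 996 reads. Mir152 had 125 and 150 CPM, from 743 and 900 reads. The ranges of the 3 genes over the libraries did not overlap, with Mir148a highest and Mir152 lowest in both. The means were 915 ± 50.5 CPM for Mir148a, 164 ± 2.3 CPM for Mir148b and 138 ± 17.4 CPM for Mir152 (SD, n = 2). In bulk tissue, fewer cells of a type and less RNA per cell cannot be told apart.

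**Figure D1:**
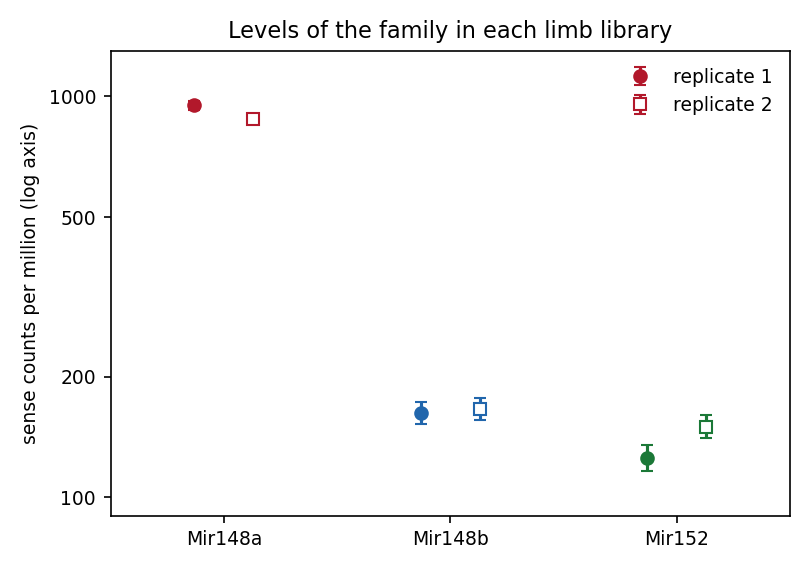
Sense CPM (log axis) of Mir148a, Mir148b and Mir152 in replicate 1 (filled circles) and replicate 2 (open squares), with bars for the exact Poisson 95% interval, which covers counting error only. Mir148a lies at 951 and 879 CPM, far above both other members, while the intervals of Mir148b and Mir152 overlap in replicate 2.

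Mir148a exceeded Mir148b by a log2 ratio of 2.48 ± 0.10 (SD, n = 2), or 5.56-fold. Mir148a exceeded Mir152 by 2.74 ± 0.26, or 6.67-fold. The exact Poisson intervals of Mir148a did not overlap those of the other members in either library, so its place at the top by read counts was resolved in both. These intervals cover counting error alone. How evenly the libraries captured different miRNAs was not measured. Mir148b exceeded Mir152 by a log2 ratio of only 0.26 ± 0.16, or 1.20-fold. In replicate 1 their intervals were 153 to 173 CPM for Mir148b and 116 to 135 CPM for Mir152, and did not overlap. In replicate 2 the intervals, 156 to 177 CPM and 140 to 160 CPM, did overlap. The ratio of their counts was 1.30 in replicate 1 (exact 95% interval 1.18 to 1.43) and 1.11 in replicate 2 (1.01 to 1.21). Order was called only where the intervals of single genes stood apart in both libraries, so that of Mir148b and Mir152 was not called, although the interval of their ratio lay above 1 in each. A two-sided exact test over 2 libraries cannot give a p below 0.5, so the ratios carry no test.

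Together the 3 genes held 7342 reads in replicate 1 and 7175 in replicate 2, which is 0.124% (exact binomial 95% interval 0.121 to 0.127%) and 0.120% (0.117 to 0.122%) of the sense counts. Within the family, Mir148a made up 76.8% of the reads in replicate 1 and 73.6% in replicate 2. Mir148b made up 13.1% and 13.9%, and Mir152 10.1% and 12.5%. The family total thus varied little between the libraries, at 1217 ± 30.8 CPM (SD, n = 2), while the share of Mir152 varied most for its size. Antisense reads over these loci were nearly absent: Mir152 had 1 in replicate 1, and the other loci had 0, where a count of 0 allows up to 0.506 and 0.4997 CPM in replicates 1 and 2.

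Mir148a ranked 101st by mean level among the 1973 counted genes, Mir148b 160th and Mir152 171st. Of the counted genes, 372 had at least 10 counts in each library. The most abundant gene, Mir196b, was 82.2-fold above Mir148a and 547-fold above Mir152. Ranks differed little between the libraries, at 100 and 101 for Mir148a, 164 and 160 for Mir148b, and 174 and 165 for Mir152 in replicates 1 and 2. The 2 genes next above and next below each member, 12 in all, had ranges over the libraries that overlapped that of the member, so these places are not resolved. Around Mir148a were Mir200b (969 ± 147 CPM), a gene of epithelia, the Hox cluster gene Mir196a-2 (964 ± 122 CPM), Mir674 (902 ± 69.5 CPM) and Mir375 (838 ± 136 CPM), known from pancreatic islets. Mir196a-2 shares 22 or more bases with another gene and is uncertain. Around Mir148b were Mir128-1, Mir700, Mir185 and Mir20b, at 160 to 167 CPM, and around Mir152 were Mir363, Mir34a, a target of p53, Mir574 and Mir377, at 134 to 148 CPM. Likeness here is one of mean level over 2 libraries, since a single tissue gives no pattern across conditions.

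**Figure D2:**
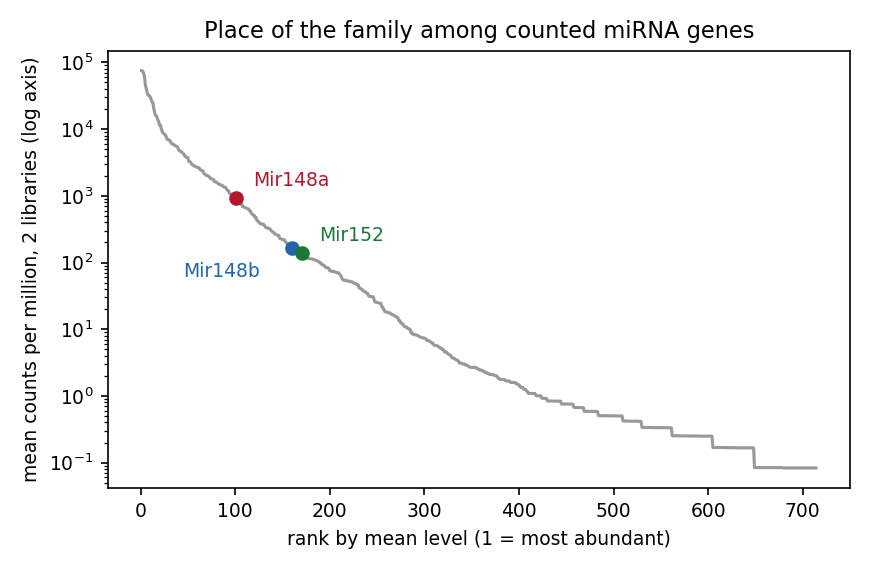
Mean CPM (log axis) against rank for the 714 miRNA genes with any sense count, with the 3 family members marked. Mir148a lies at rank 101, and Mir148b and Mir152 lie close together at ranks 160 and 171.

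The marker genes listed for tissues of a limb were abundant: the 9 for Hox clusters, cartilage, skeletal muscle, endothelium and epithelium had means of 2020 CPM or more, from Mir455 to Mir196b at 75238 CPM. The list is short and was chosen with levels known, and other genes of these tissues were far lower, such as Mir133b of muscle (75.3 CPM), Mir196a-1 of a Hox cluster (21.7 CPM) and Mir200a and Mir141 of epithelia (194 and 230 CPM). The liver gene Mir122 lay at 73.7 CPM and the heart gene Mir208a at 6.78 CPM. The neuronal gene Mir124a-1, which shares long stretches with its copies, was at 0. Other neuronal genes varied: Mir137 lay at 129 CPM and Mir128-1 at 167 CPM, while Mir9-3 lay at 2.51 CPM. Mir128-1 and Mir9-3 also share long stretches with copies.

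Between the libraries, Mir148a was lower in replicate 2 by a log2 ratio of -0.11 and Mir152 higher by 0.26, and both passed an adjusted p of 0.05 in an exact binomial test with Benjamini-Hochberg adjustment (1.93e-04 and 0.00113). Mir148b, at 0.03, did not (adjusted p = 0.805, same exact test). So 2 of the 3 members passed, against 40.3% of the 444 genes tested. This share is not matched for level: the genes tested had a median of 51.6 CPM, below each member. Small ratios pass more readily at high counts, so 2 of 3 is not read as an excess. None of the 3 members reached the minimum absolute log2 ratio of 1 that was also required for a call. Of the tested genes, 3.38% met both rules. The test takes in counting error alone and sets 1 library against the other. For scale, the median absolute log2 ratio of the 190 genes of at least 100 CPM was 0.13, and 91 of them moved less than Mir148a, 25 less than Mir148b and 152 less than Mir152.

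**Figure D3:**
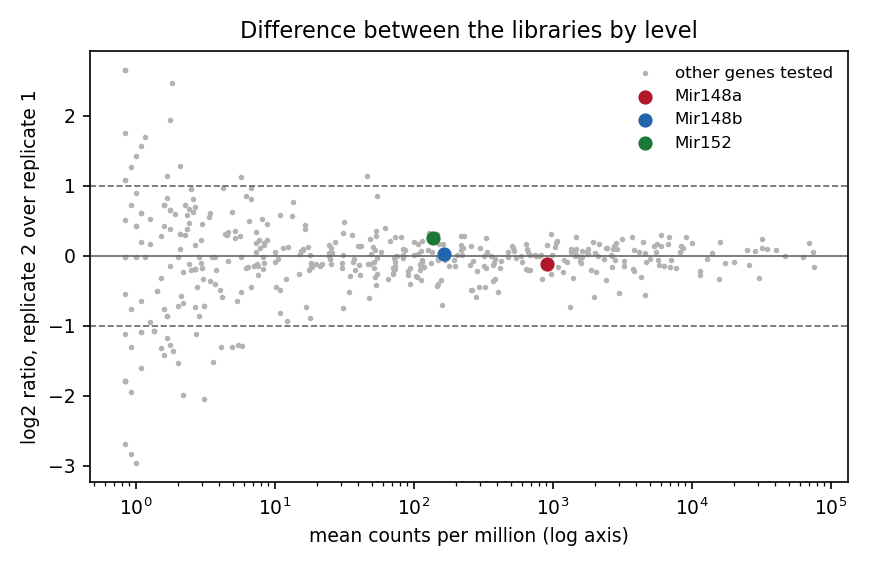
Log2 ratio of replicate 2 over replicate 1 against mean CPM (log axis) for the 444 genes tested, with dashed lines at the minimum ratio of 1 in either direction. Mir148a (-0.11), Mir148b (0.03) and Mir152 (0.26) lie within the band of the other genes at their levels.

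The loci of the family differ in kind. Mir148a (mm10, chr6:51269812-51269910, minus strand) lies between genes: no annotated gene contains it on its strand, and the nearest protein-coding genes are Nfe2l3, 162760 bases away, and Npvf, 615373 bases away. Mir148b (chr15:103285125-103285221, plus strand) lies in the first intron of Copz1, 16159 bases long, and 12411 bases from the start of that gene. Mir152 (chr11:96850393-96850465, plus strand) lies in the first intron of Copz2, a short one of 676 bases, and only 523 bases from the start of the gene. Neither host holds another counted miRNA gene, and the nearest counted miRNA genes are 65234 bases (Mir148b), 213303 bases (Mir152) and 351722 bases (Mir148a) away. All 3 are thus solitary, with no counted miRNA gene within 10 kb. Among the 1447 solitary genes, Mir148a ranked 38th, Mir148b 61st and Mir152 67th. Only 200 of these solitary genes had at least 10 counts in each library. The member with the highest level is the one with no annotated host, and the 2 with paralogous hosts have similar levels. Host genes were not counted, and a link of host to level was not tested.

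The 3 loci nonetheless have like neighbours, a feature looked up after the loci had been seen. Each lies near a gene of the Nfe2 family of leucine zipper transcription factors: Mir148a is 163 kb from Nfe2l3, Mir148b 26.7 kb from Nfe2 and Mir152 20.4 kb from Nfe2l1. Each lies near 1 of the genes of heterochromatin protein 1: Cbx3 is 200.4 kb from Mir148a, Cbx5 45.3 kb from Mir148b and Cbx1 41.8 kb from Mir152. Farther out on the same side lies a Mir196 gene in each case, 960.2 kb from Mir148a, 312 kb from Mir148b and 585 kb from Mir152. The levels of these genes differed widely: Mir196b, on the chromosome of Mir148a, was at 75238 ± 6154 CPM, Mir196a-2, on that of Mir148b, at 964 ± 122 CPM and Mir196a-1, on that of Mir152, at 21.7 ± 1.3 CPM (SD, n = 2). Mir196a-2 and Mir196a-1 each share 22 or more bases with another gene, which may lower their counts, and 3 loci allow no test.

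**Figure D4:**
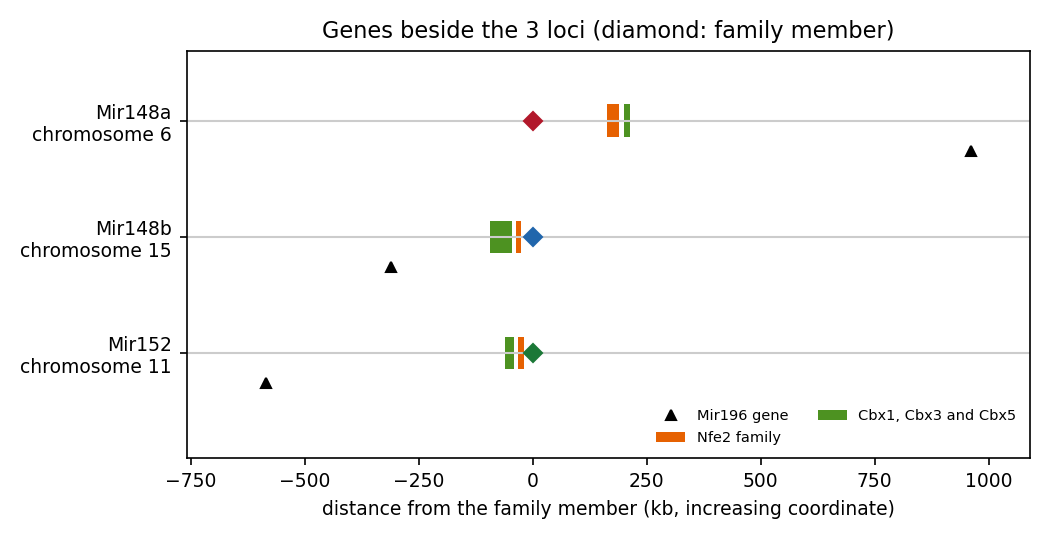
Distance in kb from each family member (diamond, at 0) to the nearest Nfe2 family gene, the nearest of Cbx1, Cbx3 and Cbx5, and the Mir196 gene (triangle) on the same chromosome. The order outward is the same at all 3 loci, Nfe2 family, Cbx and Mir196, and the distances are largest for Mir148a.

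Families whose members lie in paralogous host genes were set beside Mir148b and Mir152 of the coatomer genes. The levels of Mir148b and Mir152 lay 1.19-fold apart by their means. Mir128-1 and Mir128-2, in introns of R3hdm1 and Arpp21, lay 1.46-fold apart, at 167 and 114 CPM. Mir218-2 and Mir218-1, in introns of the axon guidance genes Slit3 and Slit2, lay 3.98-fold apart, at 48.5 and 12.2 CPM. In the myosin genes, Mir208b of Myh7 and Mir499 of Myh7b, at 101 and 81.1 CPM, were close to each other, while Mir208a of Myh6 was 14.9-fold below Mir208b. The latter gap was 20.6-fold and 11.7-fold in replicates 1 and 2, from only 29 and 52 reads of Mir208a. The widest gaps were in the Pank kinase genes, where Mir107 of Pank1 (1525 CPM) was 567-fold above Mir103-1 of Pank3 (411-fold and 915-fold in replicates 1 and 2, from only 22 and 10 reads of Mir103-1), and the Ctdsp phosphatase genes, where Mir26b of Ctdsp1 (24861 CPM) was 2373-fold above Mir26a-1 of Ctdspl. The comparison is limited by copies: the genes of the Pank, R3hdm1 and Slit families and 2 of 3 Ctdsp genes share 22 or more hairpin bases with another gene. This may lower their counts, so their levels and gaps are uncertain. Mir26a-1 shares such bases and Mir26b does not, so the Ctdsp gap may be widened. Only the myosin and coatomer families are free of such stretches.

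**Figure D5:**
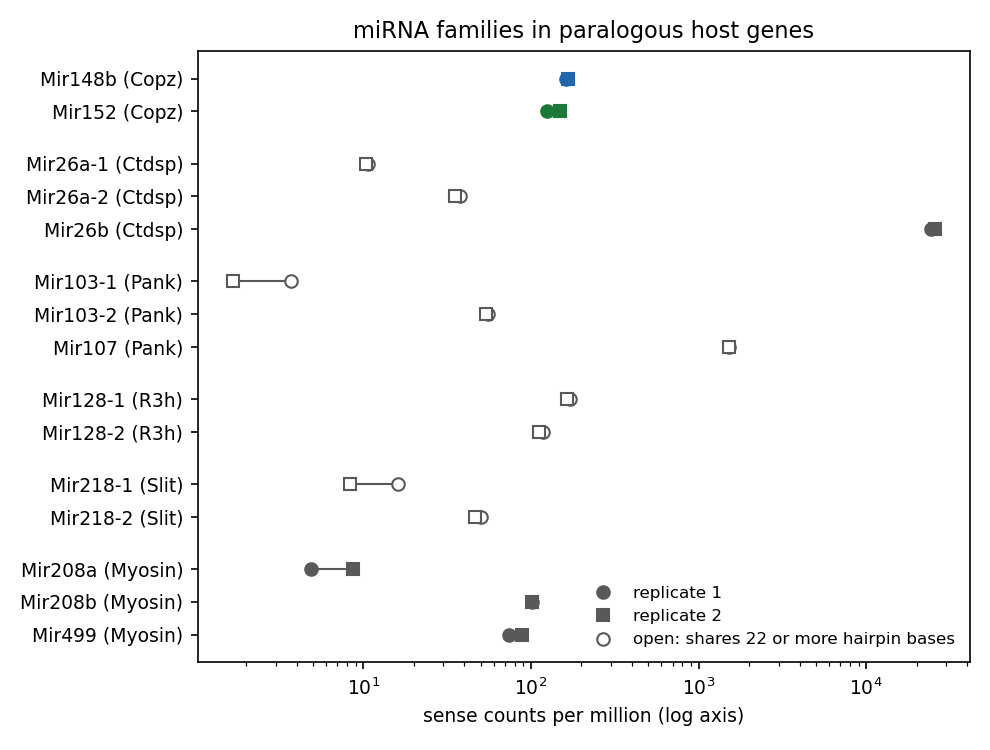
Sense CPM (log axis) in replicate 1 (circles) and replicate 2 (squares) of miRNA genes in 6 families of paralogous host genes, with open marks for genes that share 22 or more hairpin bases with another miRNA gene. Mir148b and Mir152 lie 1.19-fold apart, while Mir26b and Mir26a-1 lie 2373-fold apart. Mir26a-1 shares such bases, which may lower its counts and widen that gap.

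By seed, the family stood alone. No counted gene outside the family had the same bases 2 to 8 in an annotated arm, among the 916 counted genes that matched RefSeq by symbol. With every gene counted under the seed of each of its arms, the family ranked 138th of 1205 seeds. An abundant gene can then hold a place for each of its arms, so this rank is approximate. The 7 seed letters of the family occur 1 base earlier, at bases 1 to 7, in the 3′ arms of the Mir130 and Mir301 genes. These arms are shown here with their own bases 2 to 8 in capitals.
miR-130a-3p: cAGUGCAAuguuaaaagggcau
miR-130b-3p: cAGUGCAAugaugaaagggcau
miR-301a-3p: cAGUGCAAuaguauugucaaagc
The miR-148/152 family summed to 1239 and 1195 CPM in replicates 1 and 2, against 39784 and 41563 CPM for the 6 matched genes with the shifted letters. That is a log2 ratio of -5.06 ± 0.08 (SD, n = 2), so the hairpin genes with the shifted letters were 33.4-fold higher in sum. These are counts of whole hairpin genes, not of the 3′ arms alone. Mir301b (103 CPM) had no matched mature sequence and is not in the sum. Mir130a held most of the sum, at 32213 ± 1679 CPM, followed by Mir130b at 7061 ± 204 CPM and Mir301 at 1400 ± 217 CPM. Mir130c, Mir6341 and Mir6389 had 0 counts. Mir1960, which shares only bases 2 to 7 with the family, had 11 and 1 reads.

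Among miRNAs reported to act on DNA methyltransferases, the family was neither the most nor the least abundant. Its 3 members had a median level of 164 CPM. The 9 other genes listed for such a role had a median of 161 CPM, and the 444 genes tested between libraries a median of 51.6 CPM. Of the 9, 3 share 22 or more bases with another gene, which may lower their counts and with them this median. The closeness of 164 and 161 CPM is therefore not read as a likeness, and the list was chosen with levels known. The list was led by genes better known for other tissues: Mir140, a cartilage gene reported to target DNMT1 in human cells, was at 46627 ± 99.8 CPM, and Mir126a, an endothelial gene reported to target DNMT1 in human T cells, at 20233 ± 844 CPM. Mir143, reported to target DNMT3A in human cells, was at 6719 ± 567 CPM, and Mir342 and Mir185, reported to target DNMT1 in human cells, were at 2989 ± 775 and 161 ± 13.6 CPM. The Mir29 genes, known for repressing the de novo methyltransferases DNMT3A and DNMT3B in human cells, were lower than each family member: Mir29a had 61.8 ± 12.0 CPM and Mir29c 36.0 ± 5.1 CPM (SD, n = 2). Mir29b-1 had 3 and 0 reads and Mir29b-2 had 0, but Mir29b-1, Mir29b-2 and Mir29c have copied stretches of 22 or more bases, so these levels are uncertain. Of the 7 genes with enough counts for the test between libraries, 5 passed the adjusted p, against 40.3% of all genes tested. Of the same 7, 0 met the minimum ratio too, against 3.38%. These shares are not matched for level, as several of the 7 lie far above the tested median of 51.6 CPM.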

How the data were processed

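Per the labels, total RNA was sequenced as microRNA-seq on build mm10; a text file beside the counts gives GENCODE M4. Name and settings of the aligner and the counter: not given in the sources used here. For each library the authors deposited raw read counts per hairpin gene in 3 columns without a header (either strand, sense and antisense, read from their layout), after 4 lines of reads in no gene, which stayed out of library sizes. Unmapped reads were 17.2% and 18.6%, and reads outside genes 4.24% and 4.48%.

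Symbols, loci and hairpins were read from GENCODE M21, whose build equals mm10, and matched 1894 genes by identifier without version. The members and lists were chosen with earlier results of these data known. Genes named are the members, the 2 genes on either side of each in mean CPM, the listed genes, those with a related seed and those at the loci. Log2 ratios added 0.5 counts. The libraries were compared by a two-sided exact binomial test over all genes with at least 10 counts in sum, adjusted by Benjamini-Hochberg. The test was tried on simulated Poisson counts. These hold no spread between samples, so the trial does not show how the test behaves where there is such spread. It was planned to rank seeds by 1 arm per hairpin, but the counts do not tell arms apart, so each gene was counted under both. No molecular identifiers are recorded, so an interval or limit takes in counting error alone. P-values set 1 library against the other and include no estimate of the spread between samples. Tools were Python 3.11.15 with scipy 1.17.1, ViennaRNA 2.7.2 for folding, and edgeR 4.0.16 and DESeq2 1.42.0 for size factors.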

Additional observations from a re-analysis of the deposited data

How the results depend on the processing

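The alternatives were other library sizes, both strands, other added counts, count minimums, seed lengths, and each library alone. Of 41 values recomputed with both libraries, 33 stayed within the spread of the main value, within 1.5 times a count or rank, or on the same side of its threshold, and none changed sign. A further 20 used each library alone, which with 2 libraries puts levels, shares and ratios within 1 SD of their mean by construction. The order of the 3 members was the same under each alternative run, but apart from each library alone this was fixed by construction. Other library sizes scale all 3 members alike within a library. The added counts and the antisense reads were too few to reorder them. With both strands counted the family held 0.118% of counts, and without genes sharing 22 or more bases in the denominator 0.125%. With all reads in the denominator, the levels of Mir148a, Mir148b and Mir152 were 436, 78.2 and 65.5 CPM. Genes called between libraries numbered 15, but 7 with at least 10 counts required in each library and 179 with no minimum ratio, as those rules are stricter and looser by construction. No paired analysis was possible because there is 1 group. Having 2 libraries limits every SD given, and the single-gene intervals of Mir148b and Mir152 overlap in replicate 2.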
